A study of Homo sapiens with 12 samples.

Results

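The mitochondrial respiratory chain and ATP synthase were followed through their nuclear-encoded genes in 3 human lymphoma cell lines under 4 treatments. The members were chosen by name, as genes with a probe set of their own whose current symbol begins with NDUFA, NDUFB, NDUFC, NDUFS, NDUFV, SDHA to SDHD, UQCR, COX4 to COX8 or ATP5, with pseudogenes left out. Of the 18239 genes on the array, 91 met this rule, and 85 of these were bright enough to be tested. The 91 comprise 83 genes counted as subunits and 8 NDUFAF genes, whose products help to assemble complex I without staying in it. The inhibitor of complex V, ATP5IF1, is counted with the subunits of that complex. Cells of the activated B cell-like type of diffuse large B cell lymphoma (ABC-DLBCL) were used, and the series' title places the study in lymphoma with a mutation of MYD88. The treatments were Combo (both inhibitors), CPI203 (500 nM, an inhibitor of the BET bromodomain proteins), IRAKi (50 µM, an inhibitor of the IRAK kinases of unstated identity) and Control, of which the labels say no more. Every treatment has 1 array of each of OCI-LY3, OCI-LY10 and OCI-HBL1, so that n = 3 arrays a treatment and 4 arrays a line. The time labels are 24 h for Combo, CPI203 and Control and 6 h for IRAKi, whereas the protocol gives 18 h of CPI203 and 6 h of IRAKi, so IRAKi alone and label time cannot be told apart. The labels give no second culture of a line under any treatment, so a p-value here covers the spread among these 12 arrays and no more.

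The respiratory chain lies in the inner mitochondrial membrane. Complex I takes electrons from NADH and complex II from succinate, complex III passes them through cytochrome c to complex IV, which reduces oxygen, and complex V uses the proton gradient built on the way to make ATP. Most subunits are made from nuclear genes and imported, a few are made from mitochondrial DNA, and many nuclear genes of the chain carry binding sites for the factors NRF1, GABPA and YY1 in their promoters.

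All values are log2 levels of RNA from whole cultures, in which fewer expressing cells and less RNA per cell cannot be told apart. A level belongs to its probe set, so changes are taken between arrays and not between genes. Where levels of markers, isoforms or dim genes are set side by side, they are only a rough guide to expression. Array medians ranged from 4.64 to 4.73. The 7 B cell markers with a probe set of their own had medians of 6.86 to 12.26. The 18 markers of T cells, myeloid cells and stroma or epithelium had medians of 3.32 to 4.59, and CD3D, CD14, S100A9 and COL1A1 were below the filter. CD247 reached 7.17, PECAM1 7.39, EPCAM 6.92 and KRT8 6.82 on their highest array, and their part in the results was not tested. The OCI-LY10 IRAKi array read 4.00 on non-specific control probe sets, against 3.64 to 3.79 on the other 11 arrays. Poly-A spike-in RNA, added in a fixed amount, read higher than in Control by 0.48 ± 0.27 in Combo, 0.30 ± 0.17 in CPI203 and 0.22 ± 0.03 in IRAKi (log2, SD, n = 3). Scaling each array to these spike-ins would put the median change of all genes at -0.480, -0.295 and -0.221 in those 3 comparisons, so every change below is a change relative to the other genes of the array.

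The 85 tested members were the 6 core and 29 of 30 accessory subunits of complex I, its 8 assembly factors, 3 subunits of complex II, 8 of complex III, 12 of 17 of complex IV and all 19 of complex V. Of the 6 members below the filter (4.20 on the log2 scale, to be passed on 3 or more arrays), 5 are isoforms known from muscle, lung or testis. COX4I2, COX6A2, COX7A1, COX7B2 and COX8C had levels between 3.20 and 4.53. Their widespread partners COX4I1, COX6A1, COX7A2, COX7B and COX8A passed the filter on all 12 arrays. COX6B2, the testis form of COX6B1, passed the filter with levels of only 3.92 to 4.61. NDUFA13, an accessory subunit also known as GRIM-19, was the sixth, at 3.19 to 4.19 on the 1 probe set that carries its name alone. On a pair of probe sets that name both YJEFN3 and NDUFA13 the levels were 11.35 to 11.96 and 10.85 to 11.43, and on 1 more that names both they were 3.41 to 3.91. Which of the genes these probe sets read was not tested. The 13 subunits made from mitochondrial DNA were not analysed here.

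Promoters of 4 of the 5 members that fell with Combo, and of 1 complex IV gene that set a cell line apart, are shown because the treatment acts on chromatin readers and the promoters of this gene class carry shared motifs. NDUFAF6, the member that fell furthest, is not among the members with a promoter in the RefSeq table, so the motifs do not cover it. Each promoter shown spans 300 bases, most of them before the annotated start, on the strand of the gene (RefSeq, GRCh38.p14). Capitals mark matches to the motifs searched on both strands, and a sequence all in lower case holds none. The windows are chr6:96897842-96898141 (minus strand) for NDUFAF4, chr17:81239664-81239963 (plus strand) for NDUFAF8, chr12:4648864-4649163 (plus strand) for NDUFA9, chr4:139302502-139302801 (minus strand) for NDUFC1 and chr7:10940104-10940403 (minus strand) for COXFA4.
NDUFAF4: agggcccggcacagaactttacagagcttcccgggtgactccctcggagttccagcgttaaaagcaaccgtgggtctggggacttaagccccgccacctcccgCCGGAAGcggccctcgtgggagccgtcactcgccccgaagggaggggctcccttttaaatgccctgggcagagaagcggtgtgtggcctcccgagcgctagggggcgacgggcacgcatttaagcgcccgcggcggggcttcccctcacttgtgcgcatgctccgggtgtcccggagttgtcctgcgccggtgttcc
NDUFAF8: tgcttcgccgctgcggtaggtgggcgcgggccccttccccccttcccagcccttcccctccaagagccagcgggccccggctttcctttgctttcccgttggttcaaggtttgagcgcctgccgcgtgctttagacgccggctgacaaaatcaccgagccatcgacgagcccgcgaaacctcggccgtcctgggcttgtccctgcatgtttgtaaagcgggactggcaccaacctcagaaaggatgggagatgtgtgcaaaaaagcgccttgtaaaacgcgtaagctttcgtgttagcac
NDUFA9: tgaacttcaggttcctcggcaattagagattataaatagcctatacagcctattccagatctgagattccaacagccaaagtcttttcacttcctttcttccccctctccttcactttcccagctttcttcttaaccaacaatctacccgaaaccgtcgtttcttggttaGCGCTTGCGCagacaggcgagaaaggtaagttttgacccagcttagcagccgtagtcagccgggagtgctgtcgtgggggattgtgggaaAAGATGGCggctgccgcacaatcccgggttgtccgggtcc
NDUFC1: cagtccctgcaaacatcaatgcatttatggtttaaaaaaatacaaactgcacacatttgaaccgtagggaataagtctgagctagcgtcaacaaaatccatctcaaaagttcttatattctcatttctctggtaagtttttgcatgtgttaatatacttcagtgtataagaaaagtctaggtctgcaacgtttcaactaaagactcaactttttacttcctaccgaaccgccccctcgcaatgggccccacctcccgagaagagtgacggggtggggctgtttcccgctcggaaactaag
COXFA4: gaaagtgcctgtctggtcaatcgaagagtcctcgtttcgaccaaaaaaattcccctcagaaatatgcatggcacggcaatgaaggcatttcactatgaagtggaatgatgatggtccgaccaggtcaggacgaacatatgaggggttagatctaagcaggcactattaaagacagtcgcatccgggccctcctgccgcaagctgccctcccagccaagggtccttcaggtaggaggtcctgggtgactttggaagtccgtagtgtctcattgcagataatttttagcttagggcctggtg

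NDUFA9 holds an NRF1 motif at -80 and a YY1 motif at 11, counted from the annotated start, and NDUFAF4 a GABPA motif at -147. Among the 75 members with a promoter in the RefSeq table, 17 (22.7%) held the NRF1 motif, 10 letters of which 1 is free, against 6.28% of all 27305 promoters. The YY1 motif AAGATGGC was in 13.3% of the members' promoters and in 3.03% of all promoters, and the GABPA motif CCGGAAG in 26.7% and 10.7%. An E-box, CACGTG, to which MYC can bind, was in 10.7% of the members' promoters and in 7.43% of all. These are matches of letters in a window of one length and were not tested against binding.

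With Combo, 3 of the 8 assembly factors of complex I were called (37.5%), all fallen, beside 32.1% of all genes called and 16.7% fallen. Of these 3, only NDUFAF6 kept its call under all 13 alternative settings of the fit. Most subunits of all 5 complexes were not called. Of the 85 members, 9 were called, meaning an adjusted p below 0.05 (limma, Benjamini-Hochberg over the 13120 genes tested), with 4 risen and 5 fallen. This is 10.6% of the members, beside 32.1% of all genes tested, of which 15.4% rose and 16.7% fell. The median change was 0.06 over the members and -0.0031 over all genes (log2, n = 3). For 63 of the 85 members the 95% confidence interval of the change lay within 0.5 of zero, as it did for 3763 of the 13120 genes, and the members' median standard error (SE) was 0.107 against 0.156 for all genes.

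**Figure D1:**
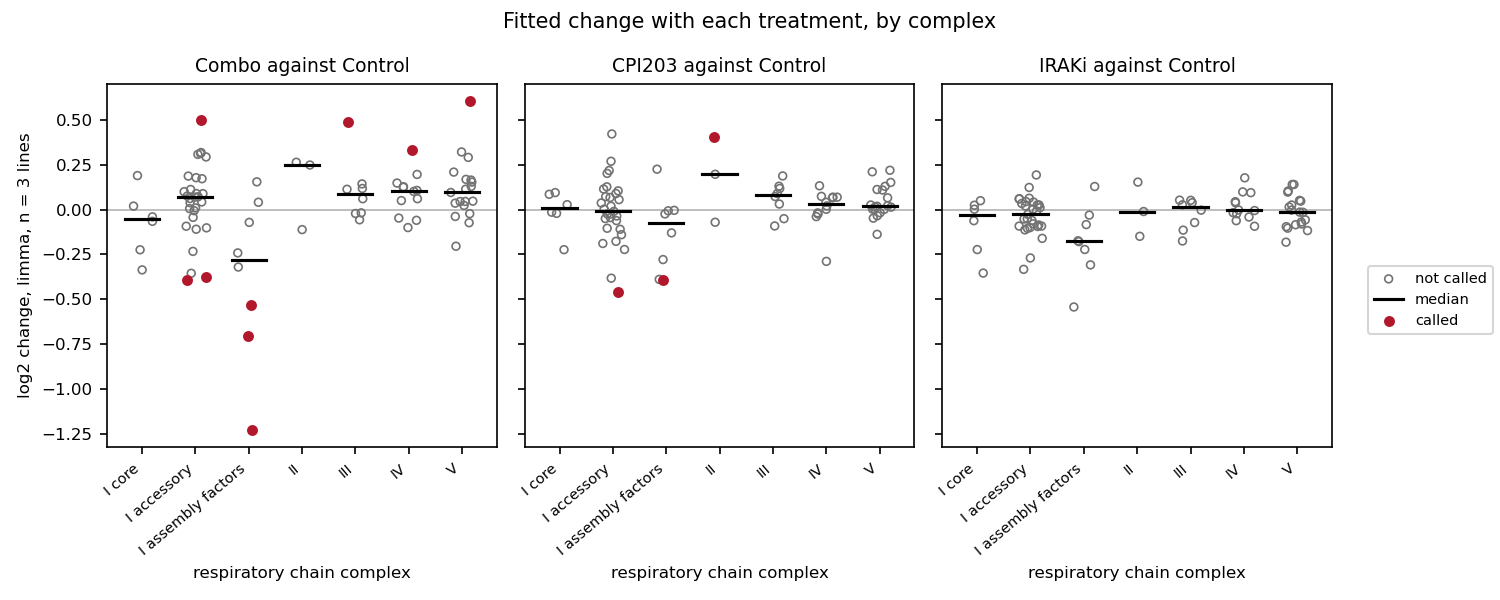
Fitted log2 change of each tested member (points, n = 3 lines, limma) with Combo, CPI203 and IRAKi against Control, by complex, with filled points for called members and bars for the median of each group. The 3 lowest points with Combo are assembly factors of complex I, at -1.23, -0.71 and -0.53, and the medians of the other groups lie between -0.05 and 0.25.

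NDUFAF6, a factor of the early steps of complex I assembly, fell furthest. Its log2 level was 7.65, 8.36 and 7.75 in Combo cells of OCI-LY3, OCI-LY10 and OCI-HBL1, against 8.81, 9.58 and 9.06 in Control cells. Every Combo array was below every Control array. The change was -1.23 ± 0.10 (log2, SE), 2.35-fold lower, with an adjusted p of 7.1e-05 by limma, and it passed the test under all 13 alternatives tried. A second probe set of the gene fell by 1.07 ± 0.12 (adjusted p = 3.1e-04). The other two, near the filter at mean levels of 4.70 and 4.25, changed by -0.28 and -0.06 without a call, so that the mean of all 4 probe sets fell by 0.66.

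NDUFAF4, which works with NDUFAF3 on the arm of complex I that binds ubiquinone, had 8.77, 8.23 and 9.76 in Combo cells, against 9.67, 9.03 and 10.17 in Control cells of the same lines. Each line fell, but the lines' own levels differed by more than the change and the groups overlap. The change was -0.71 ± 0.13 (adjusted p = 0.0028). Its 3 probe sets disagree, since a second one fell by 0.66 and the other, with a mean level of only 4.71, rose by 0.77 ± 0.16 (adjusted p = 0.0060, each probe set fitted on its own), and with the mean of the 3 the gene is no longer called, at -0.20. NDUFAF8, a partner of NDUFAF5, had 9.45, 8.93 and 10.10 in Combo cells, against 10.03, 9.85 and 10.20 in Control cells. It fell by 0.53 ± 0.14 (adjusted p = 0.019), least in OCI-HBL1 with a change of -0.10, and by 0.54 on a second probe set.

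Among the other assembly factors, NDUFAF5, which modifies the core subunit NDUFS7, changed by -0.32 ± 0.11 (adjusted p = 0.054), in the same direction in all 3 lines. NDUFAF7, a methyltransferase that acts on complex I, had the highest change of the 8, 0.15 ± 0.13 (adjusted p = 0.40). In all, 3 of 8 assembly factors fell and none rose, with a median of -0.28. Their called share of 37.5% stands beside 32.1% of all genes called and 16.7% fallen. Of the 77 other members, 2 fell and 4 rose (7.79%), with a median of 0.07. No test of the difference between these groups of genes was made.

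None of the 6 core subunits of complex I was called. They ranged from -0.34 ± 0.17 for NDUFS1, which carries electrons through iron-sulfur clusters, to 0.19 ± 0.10 for NDUFV1, the subunit that oxidises NADH. Of the 29 accessory subunits, NDUFA9 and NDUFC1 fell and NDUFA2 rose. NDUFA9, in the ubiquinone-binding arm, had 9.89, 9.95 and 10.50 in Combo cells of OCI-LY3, OCI-LY10 and OCI-HBL1, against 10.24, 10.57 and 10.72 in Control cells, a fall of 0.39 ± 0.12 (adjusted p = 0.030). NDUFC1, a small subunit of the membrane arm, had 12.02, 11.00 and 10.79, against 12.31, 11.52 and 11.11 in Control, and fell by 0.38 ± 0.10 (adjusted p = 0.016). Both fell in each line, with overlapping groups. NDUFA2, in the NADH-oxidising module, had 10.70, 10.86 and 10.95 in Combo cells, against 10.26, 10.44 and 10.33 in Control cells. Every Combo array was above every Control array, and the rise was 0.50 ± 0.10 (adjusted p = 0.005), though it shrinks to 0.02 on the spike-in scale and is then not called.

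Complexes II to V gave 3 called members among 42. COX7A2L, which joins complexes III and IV into supercomplexes, had 10.72, 11.19 and 11.20 in Combo cells, against 10.30, 11.03 and 10.78 in Control cells. It rose by 0.33 ± 0.10 on the deposited scale (adjusted p = 0.035), but its change is -0.14 on the spike-in scale. UQCRHL and ATP5MGL are near-copies of UQCRH, the hinge subunit of complex III, and ATP5MG, subunit g of complex V, so the probes may also read the parent gene. UQCRHL rose by 0.49 ± 0.13 (adjusted p = 0.017) and ATP5MGL by 0.61 ± 0.16 (adjusted p = 0.017). Their parents UQCRH, at 0.14 ± 0.10, and ATP5MG, at 0.15 ± 0.10, were not called, and ATP5MGL was dim, with 5.61, 5.68 and 5.32 in Combo cells against 5.38, 4.89 and 4.53 in Control cells.

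Among members not called, the changes were 0.06 ± 0.10 for UQCRC1, a core protein of complex III, 0.05 ± 0.10 for COX4I1 of complex IV, and -0.04 ± 0.10 and 0.05 ± 0.10 for ATP5F1A and ATP5F1B, the alpha and beta subunits of the catalytic head of complex V. Their 95% intervals lay within -0.26 and 0.29. In complex II nothing was called, with 0.26 ± 0.11 for SDHA, which oxidises succinate, and 0.25 ± 0.13 for SDHC, a membrane anchor.

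With any one of the 3 lines left out, 3 members were called in each case, NDUFAF6 always among them. NDUFAF4 lost its call without OCI-LY3 (-0.61), and NDUFAF8 without OCI-LY3 (-0.51) or OCI-LY10 (-0.34). NDUFA9, NDUFC1 and COX7A2L were not called without any one line. UQCRHL and ATP5MGL were called without OCI-LY3 but not without OCI-LY10 (0.33 and 0.51) or OCI-HBL1 (0.51 each), and NDUFA2 was called only without OCI-LY10. On the spike-in scale 22 members were called, all fallen, and the members' median was -0.42, against 0.06 on the deposited scale. The shares of all genes called in these fits are not given here, so the counts have no background beside them.

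**Figure D2:**
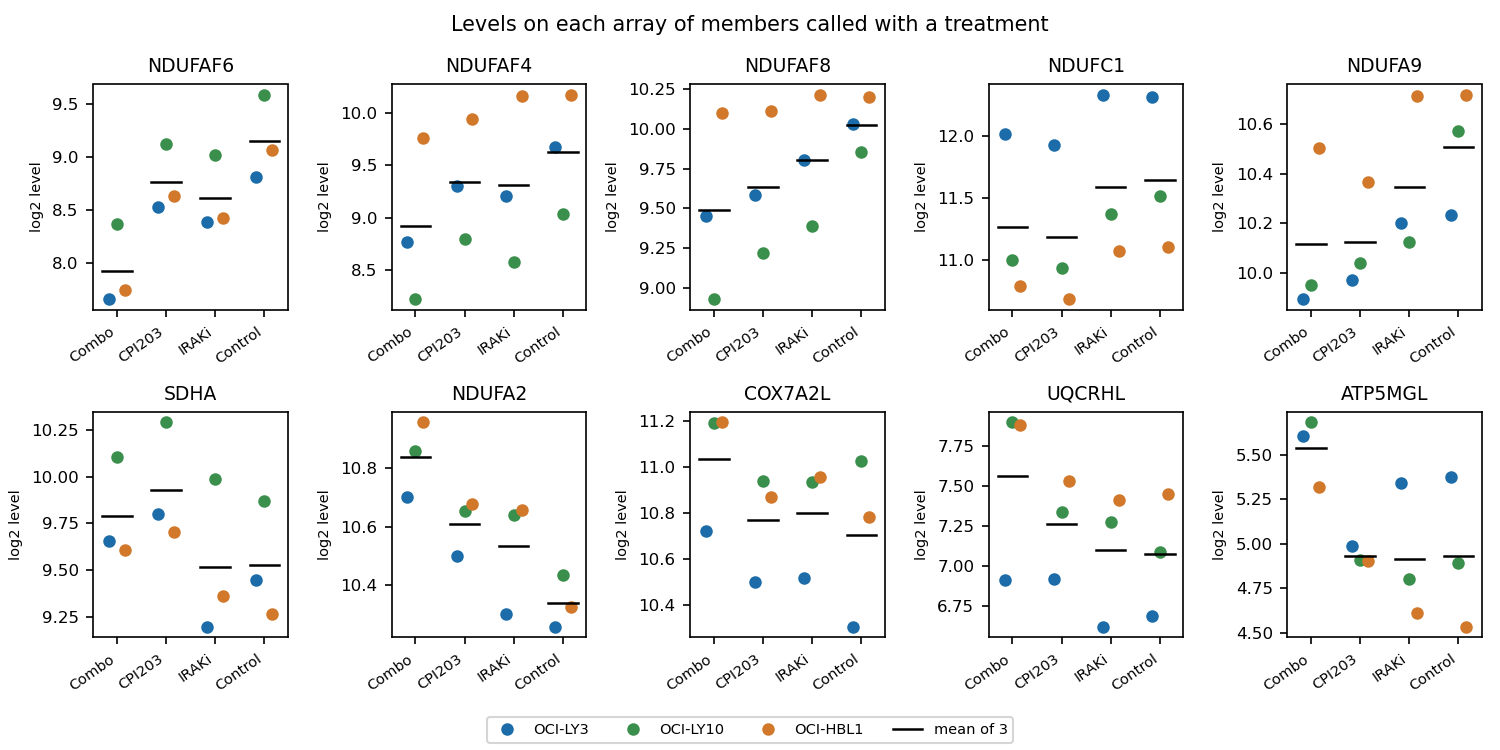
Log2 levels of the 10 members called with Combo or CPI203 against Control, one point for each array, coloured by cell line, with the mean of the 3 lines as a bar. NDUFAF6 is between 7.65 and 8.36 in Combo cells and between 8.81 and 9.58 in Control cells, and for most genes the distance between lines exceeds that between treatments.

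With CPI203 alone, 3 of the 85 members (3.53%) were called, beside 13.1% of all genes, of which 6.92% rose and 6.21% fell. NDUFC1 fell by 0.46 ± 0.10 (adjusted p = 0.017), with 11.93, 10.94 and 10.69 in CPI203 cells of OCI-LY3, OCI-LY10 and OCI-HBL1. NDUFAF6 fell by 0.39 ± 0.10 (adjusted p = 0.029), with 8.52, 9.12 and 8.63 in CPI203 cells. SDHA rose by 0.41 ± 0.11 (adjusted p = 0.041), with 9.80, 10.29 and 9.70 in CPI203 cells, against 9.44, 9.87 and 9.26 in Control cells. All 3 moved the same way in each line, and for all 3 the CPI203 and Control arrays overlap. The rise of SDHA is 0.10 and not called on the spike-in scale. With each probe set fitted on its own (limma), the chosen probe set of SDHA had an adjusted p of 0.057. A second one rose by 0.34 (adjusted p = 0.094). A second probe set of NDUFAF6 changed by -0.40 (adjusted p = 0.066), and the others, near the filter, by -0.21 and 0.36 without a call.

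NDUFA9 and NDUFAF8, which fell with Combo, changed by -0.38 ± 0.12 (adjusted p = 0.061) and -0.39 ± 0.14 (adjusted p = 0.11) with CPI203. NDUFA2 changed by 0.27 ± 0.10 (adjusted p = 0.12). The members' median was 0.01, and 0.0081 over all genes, and the interval of 73 of 85 members lay within 0.5 of zero. No member was called when any one of the 3 lines was left out.

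IRAKi alone called no member (0 of 85, limma), beside 0.168% of all genes (0.114% risen, 0.0534% fallen), and 3 members had an unadjusted p below 0.05. NDUFAF6 came nearest, with 8.38, 9.02 and 8.43 in IRAKi cells of OCI-LY3, OCI-LY10 and OCI-HBL1, a change of -0.54 ± 0.10 (adjusted p = 0.076). All 3 lines were below their own Control. The others were NDUFAF4, at -0.31 ± 0.13 (adjusted p = 0.29), and NDUFA10, an accessory subunit of the membrane arm, at -0.27 ± 0.11 (adjusted p = 0.27). The members' median was -0.02, with 79 of 85 intervals within 0.5 of zero.

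Against CPI203 alone, Combo called 1 member (1.18%), beside 4.66% of all genes (1.96% risen, 2.71% fallen). This was NDUFAF6, lower by 0.84 ± 0.10 (adjusted p = 0.008), a call that is lost when any one line is left out, with changes of -0.81 to -0.88 and adjusted p of 0.070 to 0.13 (limma). Against IRAKi alone, Combo called 5 members (5.88%), beside 18.7% of all genes (8.21% risen, 10.5% fallen). NDUFAF6 fell by 0.69 ± 0.10 (adjusted p = 0.0022) and NDUFC1 by 0.32 ± 0.10 (adjusted p = 0.047). NDUFB11, a membrane arm subunit, rose by 0.41 ± 0.12 (adjusted p = 0.043), with 11.33, 11.28 and 11.29 in Combo cells against 11.01, 10.73 and 10.93 in IRAKi cells. UQCRHL rose by 0.46 ± 0.13 (adjusted p = 0.035) and ATP5MGL by 0.62 ± 0.16 (adjusted p = 0.025), with the doubt of near-copies given above. Most of these calls were lost when a single array or line was left out. NDUFAF6 alone was called without the OCI-LY10 IRAKi array (-0.69), without OCI-LY10 (-0.70) or without OCI-HBL1 (-0.69). ATP5MGL alone was called without OCI-LY3 (0.80), where NDUFAF6 was at -0.67 (adjusted p = 0.051). Such fits also hold fewer arrays, and the part of that in the lost calls was not tested. The 3 rises were not called on the spike-in scale.

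The interaction term, Combo minus CPI203 minus IRAKi plus Control, measures the departure from additive log2 changes. It called no member (0 of 85, limma, 1 at an unadjusted p below 0.05), beside 0.00762% of all genes. NDUFAF6 departed by -0.29 with a 95% interval of -0.60 to 0.02, so its fall with Combo was not shown to differ from the sum of the falls with each inhibitor.

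**Figure D3:**
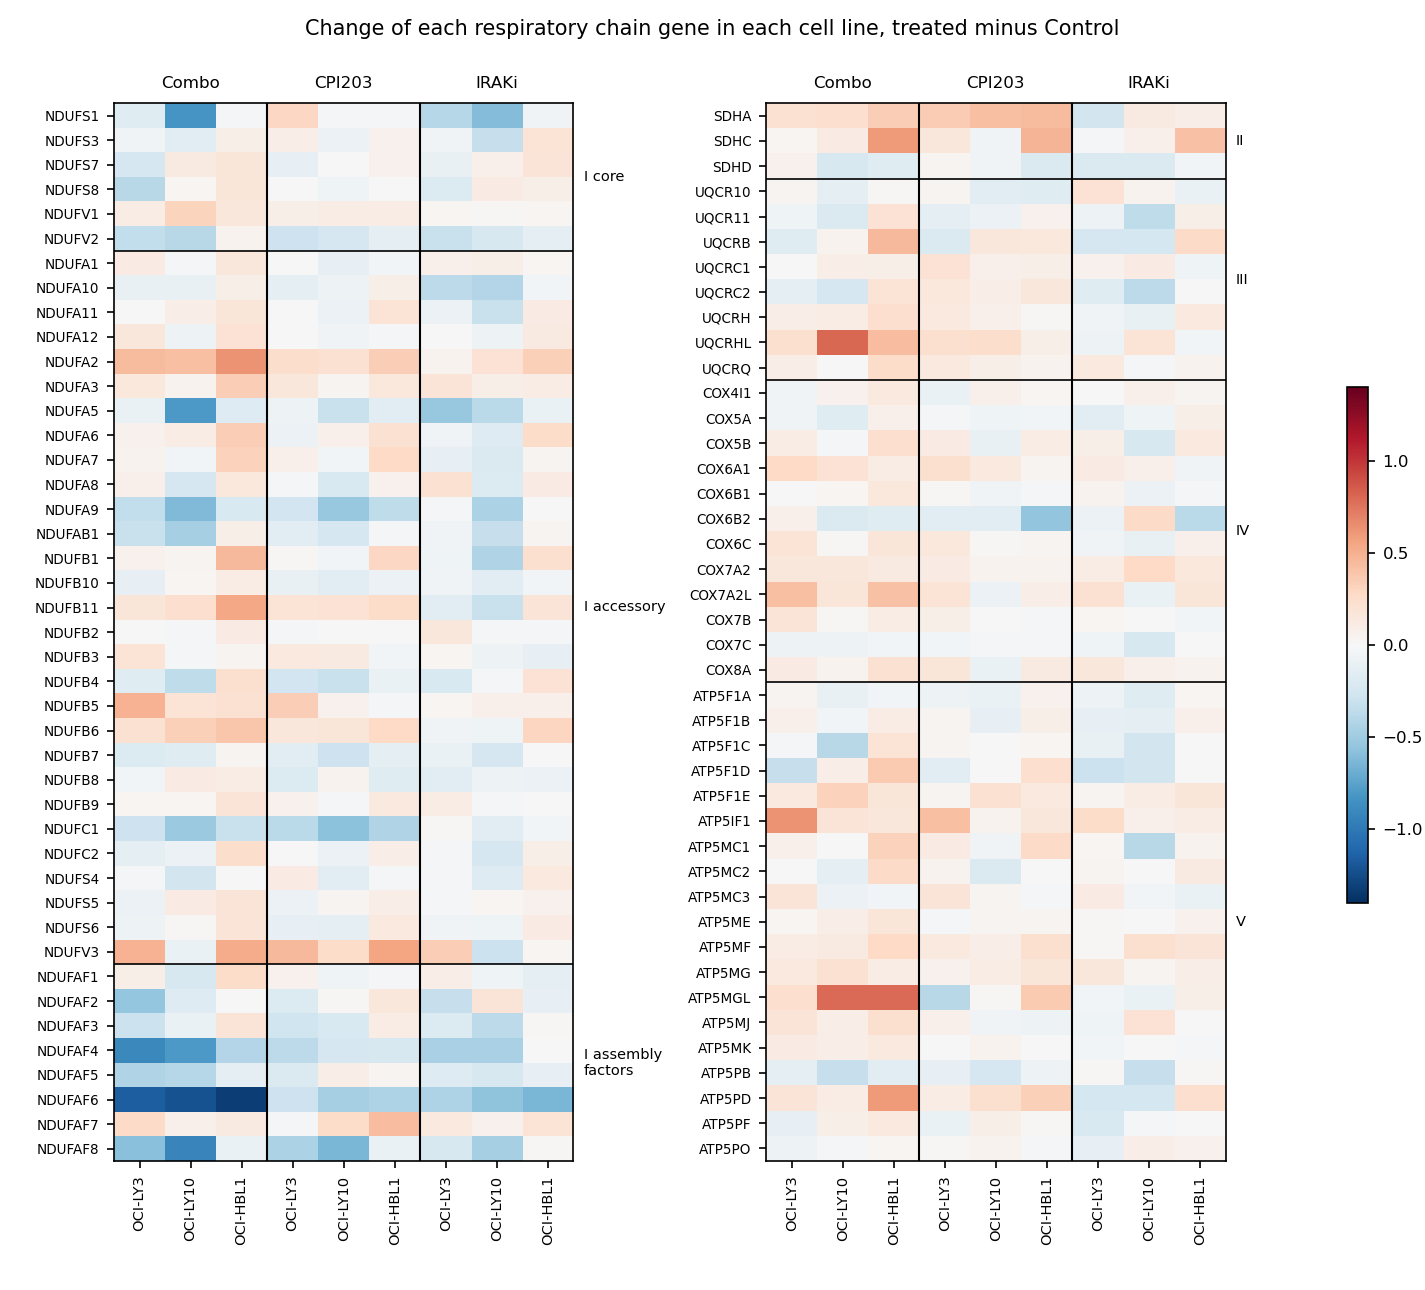
Log2 change of each tested member in each cell line (1 treated array minus 1 Control array, not tested), grouped by complex, for Combo, CPI203 and IRAKi. NDUFAF6 falls by 1.16, 1.22 and 1.32 in the 3 lines with Combo. The OCI-HBL1 column with Combo is mostly above zero, with 69 of 85 members, where the median over all genes is 0.0099.

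The number of members above Control under Combo varied by line. In OCI-HBL1, 69 of 85 members were higher in Combo than in Control, with a median of 0.16, against 0.0099 over all genes. In OCI-LY3 there were 50 of 85 with a median of 0.03, and in OCI-LY10 43 of 85 with a median of 0.0037. Over all genes the median was -0.0089 in both of these lines. The share of all genes above Control in each line is not given here. Each comparison is 1 array against 1 array, and the difference between lines was not tested. The rise of the poly-A spike-ins with Combo, which ranged from 0.19 to 0.73 over the lines, was smallest in OCI-HBL1, and its part in the result was not tested.

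Genes around the chain were described through lists chosen with earlier results of these data in view. Of 44 other assembly factors of the complexes, 15 fell and 6 rose with Combo, 47.7% beside 32.1% of all genes. COA7, TACO1 and COA3, which serve the assembly of complex IV or the making of one of its mitochondrial subunits, fell by 1.43 ± 0.16, 1.27 ± 0.10 and 1.14 ± 0.17 (adjusted p of 2.9e-04, 7.1e-05 and 9.4e-04). SDHAF4, CMC2 and SURF1, factors of complex II and complex IV, rose by 0.69 ± 0.23, 0.68 ± 0.12 and 0.58 ± 0.10 (adjusted p of 0.047, 0.0025 and 0.0017). Mitochondrial import gave 12 fallen and none risen of 28 (42.9%), among them TOMM40, the channel of the outer membrane, at -0.81 ± 0.13 (adjusted p = 0.0016). Among 21 regulators of mitochondrial biogenesis 9 fell, such as MYC by 1.60 ± 0.21 (adjusted p = 5.9e-04) and the coactivator gene PPRC1 by 0.91 ± 0.13, and 3 rose, such as NRF1 by 1.01 ± 0.12 (adjusted p = 3.8e-04). All these counts stand beside 15.4% of all genes risen and 16.7% fallen with Combo. The lists' medians were -0.18, -0.26 and -0.12, beside -0.28 for the 8 NDUFAF genes and 0.07 for the 77 other members.

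Of 17 genes of electron carriers and coenzyme Q synthesis, 5 fell and 1 rose with Combo (35.3%, beside 32.1% of all genes). The rise was ETFDH, which passes electrons from fat oxidation to coenzyme Q, by 0.76 ± 0.13 (adjusted p = 0.0023), and DHODH, which links pyrimidine synthesis to coenzyme Q, fell by 0.95 ± 0.23 (adjusted p = 0.010). In the TCA cycle 2 of 15 rose and 1 fell (20.0%), and in glycolysis 1 of 21 rose and 3 fell (19.0%), with HK2, a hexokinase, at -0.87 ± 0.18 (adjusted p = 0.0052). With IRAKi none of the genes on these 6 lists was called, and with CPI203 the other assembly factors gave 8 fallen and 2 risen of 44 (22.7%, beside 13.1% of all genes).

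The members had 97 tested probe sets besides the chosen ones. Of these, 12 were called with Combo, 8 risen and 4 fallen, beside 28.9% of all probe sets fitted one by one. From NDUFAF4, NDUFAF6 and NDUFAF8, whose chosen probe sets were called as fallen, come 4 of the 12. Of these 4, 1 of NDUFAF4 rose by 0.77, against the chosen one, and the rest fell. ATP5MJ, a small subunit of complex V, rose on 3 of its other probe sets by 0.95 ± 0.15, 0.75 ± 0.13 and 0.66 ± 0.13 (adjusted p of 0.0012, 0.0021 and 0.0046), against 0.16 ± 0.11 on the chosen one. ATP5MK, a subunit that stabilises dimers of complex V, rose by 1.56 ± 0.24 (adjusted p = 0.0013) on a probe set with a mean level of 7.86, against 0.11 on the chosen one at 12.02. UQCR11, a small subunit of complex III, fell by 1.00 ± 0.15 (adjusted p = 0.0011) on a probe set at 6.38, against -0.02 on the chosen one at 11.24. These genes were singled out after their values were seen, and which transcripts the probe sets read is not given in the sources used here.

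Between cell lines the members differed about as often as other genes. Each line has 4 arrays, 1 a treatment, so the test measures the spread over treatments and not over separate cultures of a line. In OCI-LY3 against OCI-LY10, 43 of 85 members were called (50.6%), beside 46.6% of all genes (26.0% higher, 20.6% lower), with 11 higher and 32 lower. Against OCI-HBL1, OCI-LY3 had 44 called members (51.8%), 13 higher and 31 lower, beside 47.2% of all genes (25.1% higher, 22.2% lower). OCI-LY10 had 41 against OCI-HBL1 (48.2%), 20 higher and 21 lower, beside 48.5% (22.8% higher, 25.8% lower). The members' medians were -0.10, -0.19 and -0.03 (log2), and all genes' medians 0.02, 0.0087 and -0.0058. On the spike-in scale, OCI-LY3 had 9 higher and 8 lower against OCI-LY10 and 5 higher and 25 lower against OCI-HBL1, and OCI-LY10 had 4 higher and 29 lower against OCI-HBL1. The shares of all genes called on that scale are not given here.

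**Figure D4:**
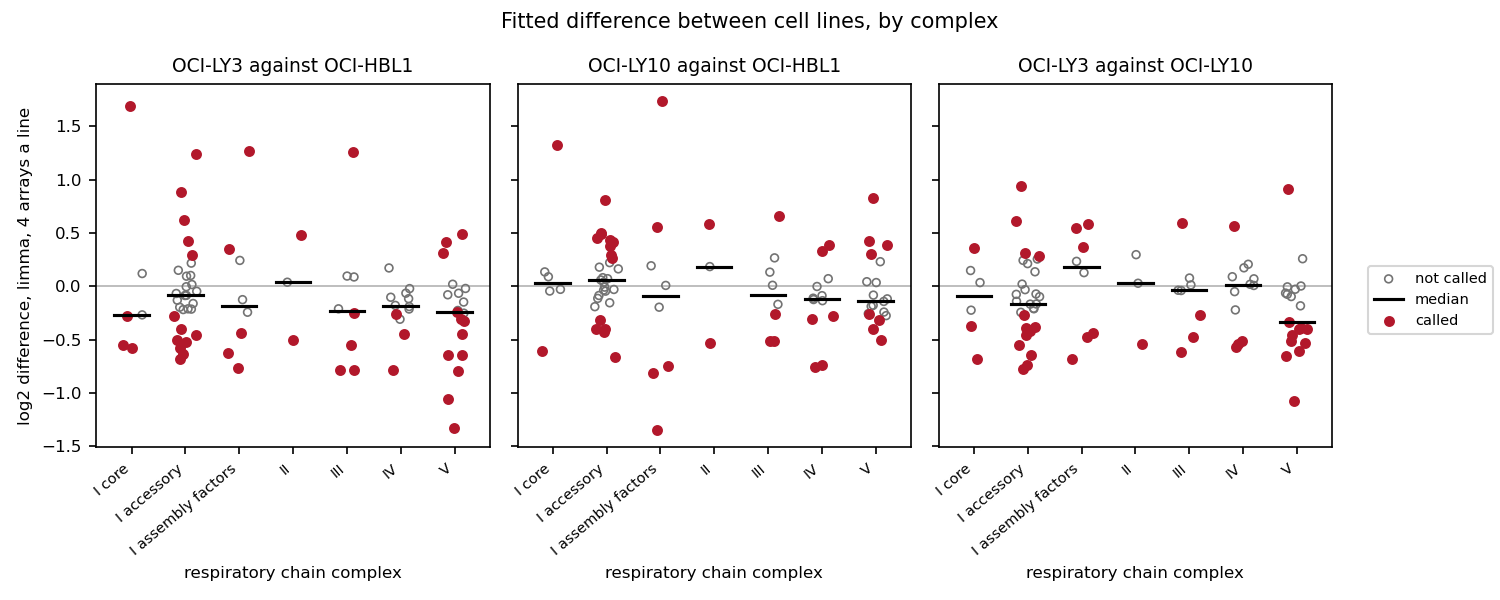
Fitted log2 difference of each tested member (points) between cell lines, with 4 arrays a line, by complex, with filled points for called members and bars for the median of each group. Members of complex V lie low in OCI-LY3, with medians of -0.24 against OCI-HBL1 and -0.33 against OCI-LY10, while single genes of complexes I and III reach 1.25 to 1.74.

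Many members of complex V were lower in OCI-LY3. Of the 19, 10 were lower and 1 higher than in OCI-LY10 (57.9% called), with a median of -0.33, beside 20.6% of all genes lower and 26.0% higher. Against OCI-HBL1, 9 were lower and 3 higher (63.2% called), with a median of -0.24, beside 22.2% of all genes lower and 25.1% higher. These medians are -0.19 and -0.39 on the spike-in scale. ATP5IF1, the inhibitor that stops complex V from running backwards, had 10.39, 10.18, 10.005 and 9.75 in Combo, CPI203, IRAKi and Control cells of OCI-LY3. In the same order it had 11.25, 11.13, 11.14 and 11.08 in OCI-LY10 and 11.46, 11.46, 11.41 and 11.31 in OCI-HBL1. Every OCI-LY3 array was below every array of the other lines. OCI-LY3 was lower than OCI-LY10 by 1.07 ± 0.10 (adjusted p = 2.5e-05) and differed from OCI-HBL1 by -1.33 ± 0.10 (adjusted p = 5.6e-06), while OCI-LY10 against OCI-HBL1 was not called, at -0.26 ± 0.10 (adjusted p = 0.066). ATP5PB, subunit b of the stalk, averaged 11.71 ± 0.07 in OCI-LY3, 12.36 ± 0.15 in OCI-LY10 and 12.77 ± 0.08 in OCI-HBL1 (SD, n = 4), and all 3 differences were called. ATP5F1E, the epsilon subunit, was the member higher in OCI-LY3 than in OCI-LY10, by 0.92 ± 0.09 (adjusted p = 2.1e-05).

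Core subunits of complex I gave the widest single difference among subunits with NDUFV2, which holds an iron-sulfur cluster beside NDUFV1. Its level was 12.29, 12.34, 12.31 and 12.63 in Combo, CPI203, IRAKi and Control cells of OCI-LY3, and 11.86, 12.003, 12.02 and 12.24 in OCI-LY10, against 10.81, 10.62, 10.63 and 10.76 in OCI-HBL1. OCI-HBL1 was below both other lines on every array. The difference from OCI-HBL1 was 1.69 ± 0.10 in OCI-LY3 (adjusted p = 8.1e-07) and 1.32 ± 0.10 in OCI-LY10 (adjusted p = 3.8e-06). NDUFS7 was lower in OCI-LY3 than in OCI-LY10 by 0.69 ± 0.10, and NDUFS1 lower in OCI-LY10 than in OCI-HBL1 by 0.61 ± 0.15.

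Accessory subunits differed gene by gene. NDUFC1 averaged 12.15 ± 0.20 in OCI-LY3, 11.21 ± 0.28 in OCI-LY10 and 10.91 ± 0.21 in OCI-HBL1 (SD, n = 4), and NDUFA7 was higher in OCI-LY3 as well, by 0.62 ± 0.09 against OCI-LY10 and 0.88 ± 0.09 against OCI-HBL1. NDUFB8, NDUFB2 and NDUFA12 were lower in OCI-LY3 than in OCI-LY10, by 0.74, 0.65 and 0.77 (SE 0.09 each). NDUFAB1, the mitochondrial acyl carrier protein, was lower than in OCI-HBL1 by 0.64 ± 0.11 in OCI-LY3 and 0.66 ± 0.11 in OCI-LY10. NDUFS5 was highest in OCI-LY10, 0.81 ± 0.09 above OCI-HBL1.

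Of the 8 assembly factors, 6 were called in OCI-LY3 against OCI-LY10 (75.0%, beside 46.6% of all genes). Against OCI-HBL1, 5 were called in each of OCI-LY3 and OCI-LY10 (62.5%, beside 47.2% and 48.5% of all genes). NDUFAF1, part of the complex that builds the membrane arm, had 8.86 to 8.95 in OCI-LY3 and 9.25 to 9.47 in OCI-LY10, against 7.49 to 7.89 in OCI-HBL1. The 3 lines do not overlap, and the difference from OCI-HBL1 was 1.27 ± 0.11 in OCI-LY3 and 1.74 ± 0.11 in OCI-LY10 (adjusted p of 1.1e-05 and 1.1e-06). NDUFAF4 ran the other way, lower than in OCI-HBL1 by 0.77 ± 0.11 in OCI-LY3 and 1.35 ± 0.11 in OCI-LY10, and NDUFAF2, which acts late in assembly, by 0.62 ± 0.12 and 0.75 ± 0.12. NDUFAF6 was highest in OCI-LY10, 0.56 ± 0.09 above OCI-HBL1 (adjusted p = 4.3e-04).

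Among complexes III and IV, UQCR11 averaged 11.86 ± 0.06 in OCI-LY3, 11.27 ± 0.16 in OCI-LY10 and 10.60 ± 0.09 in OCI-HBL1 (SD, n = 4), and no array of one line reached those of another. UQCRH was lower than in OCI-HBL1 by 0.78 ± 0.09 in OCI-LY3 and 0.51 ± 0.09 in OCI-LY10. COX4I1 was lower by 0.78 ± 0.08 and 0.73 ± 0.08, and OCI-LY3 against OCI-LY10 was not called for it (-0.05, adjusted p = 0.67). COX6A1 was lower in OCI-LY10 than in OCI-HBL1 by 0.75 ± 0.08, and OCI-LY3 was above OCI-LY10 by 0.56 ± 0.08.

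COXFA4, the current symbol of NDUFA4, encodes a subunit of complex IV that was once assigned to complex I, and is given beside the members because its symbol no longer meets the rule. Its chosen probe set read 7.59, 6.82, 6.36 and 6.87 in Combo, CPI203, IRAKi and Control cells of OCI-LY10. It read 11.74, 11.72, 11.53 and 11.43 in OCI-LY3, and 11.86, 11.76, 11.78 and 11.52 in OCI-HBL1. OCI-LY10 lay far below both lines under every treatment. It was 28.3-fold lower than OCI-HBL1, at -4.82 ± 0.17 (log2, SE, adjusted p = 2.3e-08), and OCI-LY3 was above OCI-LY10 by 4.70 ± 0.17 (adjusted p = 4e-08), while OCI-LY3 and OCI-HBL1 differed by -0.13 with a 95% interval of -0.51 to 0.26. A second probe set read 3.20 to 4.35 in OCI-LY10, at the level of genes below the filter, against 11.74 to 12.09 in OCI-LY3 and 11.98 to 12.23 in OCI-HBL1. The remaining one was between 3.40 and 3.89 on all 12 arrays. COXFA4L2, a related gene known from low oxygen, stayed between 3.73 and 4.69, and with no treatment was COXFA4 called (0.46 ± 0.20 in Combo against Control, adjusted p = 0.11).

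**Figure D5:**
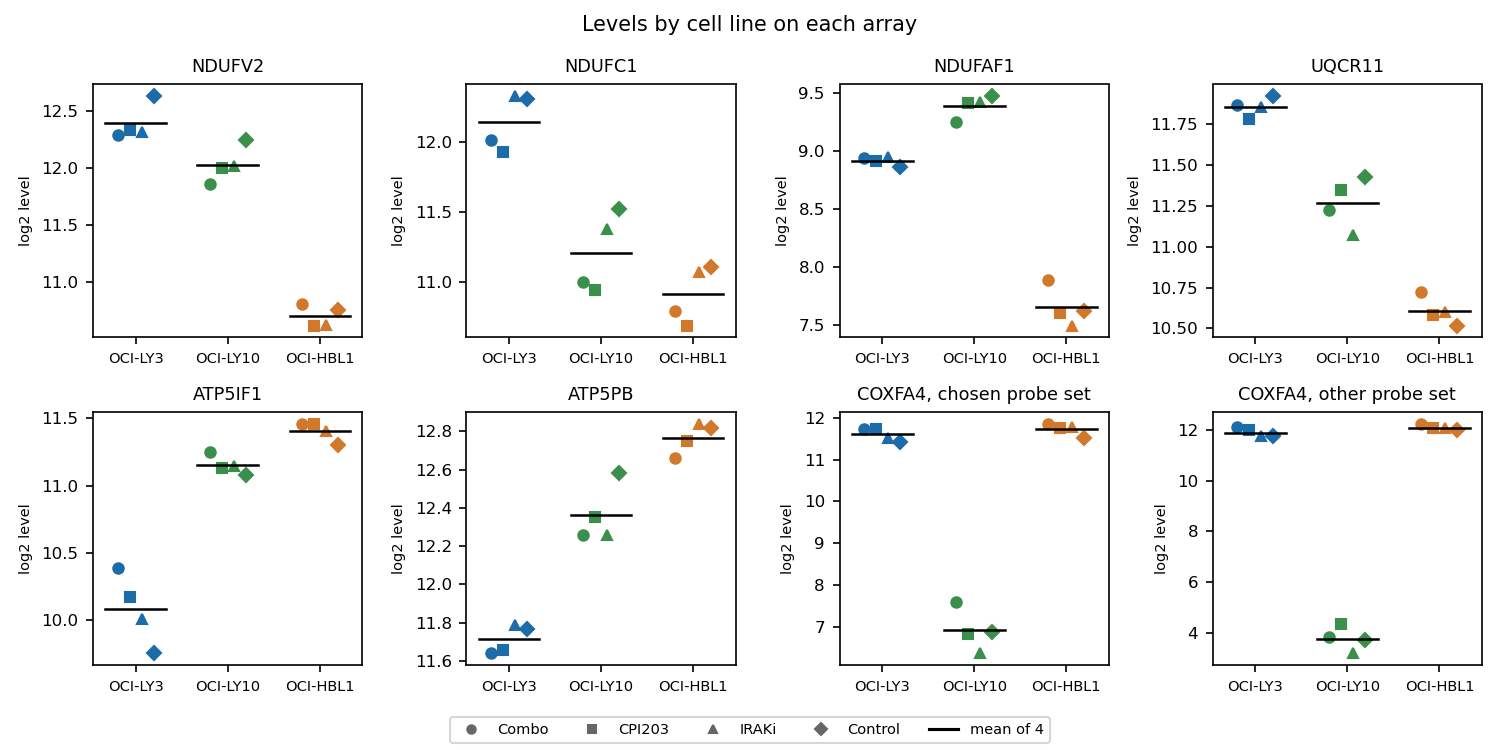
Log2 levels on each array of 6 members and of 2 probe sets of COXFA4, by cell line, with a symbol for each treatment and a bar for the mean of the 4 arrays. COXFA4 is between 6.36 and 7.59 (chosen probe set) and between 3.20 and 4.35 (other probe set) in OCI-LY10, and above 11.4 in both other lines.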

How the data were processed

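RNA of 12 cultures (150 ng each) was read on Affymetrix arrays. The deposited log2 values came from RMA in Affymetrix Expression Console 1.1, per the submitters' processing notes. The genome build of the probes is not given in the sources used here. Gene symbols came from the platform annotation and were updated through the RefSeq table. Of the 45253 probe sets that carry 1 gene, the one with the highest mean level stood for its gene. Genes above the 40th percentile (4.20) in at least 3 arrays were tested, 13120 of 18239. limma 3.58.1 (R 4.3.3) fitted treatment and cell line over all 12 arrays, with two-sided tests and Benjamini-Hochberg adjustment over the genes tested. The fit had 6 residual and 3.66 prior degrees of freedom. The cell line pairs the arrays by the labels, and deviations of arrays of the same line from their treatment means correlated between 0.819 and 0.907. The number of arrays limits the precision. The code was tested on simulated data. Named are called members, the extremes of each complex, members whose probe sets disagree, isoform pairs, and 3 genes each way per list. The members and lists were chosen with earlier results of these data known.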

Additional observations from a re-analysis of the deposited data

Results flagged for a closer look

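Probe sets that name several genes were left out of the comparisons. Of the 9 such probe sets of the members that could be tested, 1 was called between treatments. The probe set that names SDHA together with its pseudogenes SDHAP1 and SDHAP2 rose with CPI203 against Control by 0.399 ± 0.105 (log2, SE, n = 3, adjusted p = 0.040 by limma over 31352 probe sets). Its levels were 10.36, 10.81 and 10.60 in CPI203 cells of OCI-LY3, OCI-LY10 and OCI-HBL1, against 9.92, 10.50 and 10.15 in Control cells, higher in each line. A further probe set, which names SDHA and SDHAP3, changed by 0.22 ± 0.12 (adjusted p = 0.29).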

How the results depend on the processing

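The fall of NDUFAF6 with Combo passed the test under all 13 alternatives. Of 231 values of single members in the treatment comparisons, 135 kept their direction and call, 95 kept the direction but lost the call, and 1 reversed, COX7A2L with Combo at -0.143 on the spike-in scale. The line comparisons gave 642 values from 50 results. These were the largest differences each way among called members, with COXFA4 added, and not all called members. Of the 642 values, 619 kept direction and call and 23 lost the call. With Combo the count of 9 became 15 when all probe sets of a gene were averaged, 22 on the spike-in scale (0 risen), 19 with trend and robust estimation, 2 in a fit of Combo and Control only, and 3 without any one cell line. With CPI203 the count of 3 became 7 with trend and robust estimation, 0 with 2 groups only and 0 without any one line. With IRAKi the count of 0 became 1 with the filter at the 60th percentile and 1 with trend and robust estimation. For Combo against CPI203 the count of 1 became 2 with the mean of probe sets, 2 with probe sets not ending in s_at or x_at, 2 with trend and robust estimation, and 0 without any one line. For Combo against IRAKi the count of 5 became 12 with the mean of probe sets, 3 with no filter, 1 on the spike-in scale, 8 with trend and robust estimation, 1 without the OCI-LY10 IRAKi array, 1 with 2 groups only and 1 without any one line. Without the replicate block, which pairs arrays of the same cell line, the counts were 1 for Combo, 0 for CPI203, 0 for Combo against CPI203 and 0 for Combo against IRAKi. Between lines, the spike-in scale left 17 of 43 calls in OCI-LY3 against OCI-LY10. Leaving out one treatment gave 35 to 42 calls in that comparison, 32 to 36 in OCI-LY3 against OCI-HBL1 and 31 to 36 in OCI-LY10 against OCI-HBL1. Beyond what fewer arrays in a fit explains by construction, the cause was not tested. The shares of all genes called under these settings are not given here, so the counts have no background beside them.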
